A study of Mus musculus with 12 samples.

Results

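The effect of a high fat diet was examined in skeletal muscle of mice lacking GPR120 (GPR120 KO). The comparison consisted of 6 of the 12 arrays in the series, namely all 3 arrays of GPR120 KO mice on high fat diet (HFD) set against all 3 arrays of GPR120 KO mice on normal diet (ND), and every difference is HFD minus ND. The other 6 arrays, 3 of wild-type (WT) mice on each diet, entered the same fit and were used to test whether a diet difference depended on genotype. WT and KO mice alike were 16 weeks old, their strain background mixed 129/Sv with C57BL/6, and each array held total RNA from 1 mouse. The sources used here give neither the knockout allele, the sex, the muscle sampled, the length of feeding nor the fat content of the diets. Mice of the KO diet groups carried separate runs of numbers, and the sources do not say whether they were also separate litters or cohorts. The arrays carried at least 1 single-gene probe set for 18193 genes, of which 11345 passed a filter on mean signal and were tested.

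Ffar4 encodes GPR120, a G protein-coupled receptor that senses long-chain fatty acids and signals through Gq and through a beta-arrestin. It is best known from gut endocrine cells, adipocytes and macrophages, where its activation dampens inflammatory signalling. Skeletal muscle takes up fatty acids through Cd36 and lipoprotein lipase, stores them in lipid droplets and oxidises them in mitochondria, and fat feeding is known to shift its fuel use toward fat. Resident macrophages, fibro-adipogenic progenitors and adipocytes between the fibres contribute RNA to a whole-muscle sample, so in these bulk samples a change in the number of cells of a type and a change in RNA per cell cannot be told apart.

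The Ffar4 probe set was dim in every array and does not check the genotype labels. Its log2 signal was 3.22, 3.88 and 0.33 in KO on ND, 3.19, 2.76 and 0.98 in KO on HFD, -0.19, 2.26 and -1.39 in WT on ND, and 1.28, 2.40 and 0.56 in WT on HFD, against a filter at 3.78. The sources do not say which part of the gene it covers. The tissue label was borne out by the 13 skeletal muscle fibre markers, which summed to between 131911 and 166688 linear signal units in every array. Within groups, arrays correlated at 0.886 to 0.901 on average, and the closest pair of arrays correlated at 0.902. RNA integrity was followed by the log2 difference between 3′ and 5′ control probe sets of actin and Gapdh, which averaged 0.164 ± 0.134 in KO on HFD and 0.0739 ± 0.0587 in KO on ND (SD, n = 3 each, exact permutation test, two-sided p = 0.4, smallest possible 0.1). In WT this measure was -0.08, 0.09 and -0.07 on ND and 0.16, 0.20 and 0.16 on HFD, without overlap. Diet differences in WT, and interactions that use them, were therefore confounded with it.

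The genes that rose in KO muscle on HFD included acute phase, macrophage, lysosomal, antigen-presenting, matrix and fat-handling genes, and those that fell included glucocorticoid-, FoxO- and stress-responsive genes and inducible chaperones. At an adjusted p under 0.05 (limma moderated test, Benjamini-Hochberg over all genes tested), 515 genes differed, which is 4.54% of those tested. Of these, 302 rose on HFD (2.66%) and 213 fell (1.88%), so 58.6% of calls were higher. These shares are the background for every list count below, and a single call in a list is not read as a result about the list. Differences were mostly modest, with a median size of 0.83 on the log2 scale, 173 genes at 2-fold or more and 111 under 1.5-fold. In 514 of the 515 the KO arrays of the diets did not overlap, with Rras2 the exception (difference -0.82). Among all tested genes, 16.3% did not overlap in the upward and 10.2% in the downward direction. The calls were made on these same arrays, so the lack of overlap adds no separate support. The median difference of all tested genes was 0.05. Centring the arrays on the median of all probe sets shifted it by -0.12 and turned the split to 99 higher and 314 lower (24.0% higher). Only called genes are therefore described as rising or falling. Signs of other differences, list medians and counts at an unadjusted p depend on this scaling. None of the 161 named calls reversed under any alternative, but arrays that do not overlap cannot reverse when mice are left out. Other probe sets of some named genes had the opposite sign, such as those of Atg7 (-0.24) and Shroom3 (0.11). Leaving out single KO mice lowered the count to 200 and 133 (ND replicates 1 and 2) and to 255, 312 and 158 (HFD replicates 1, 2 and 3), and to 363 without ND replicate 3.

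**Figure D1:**
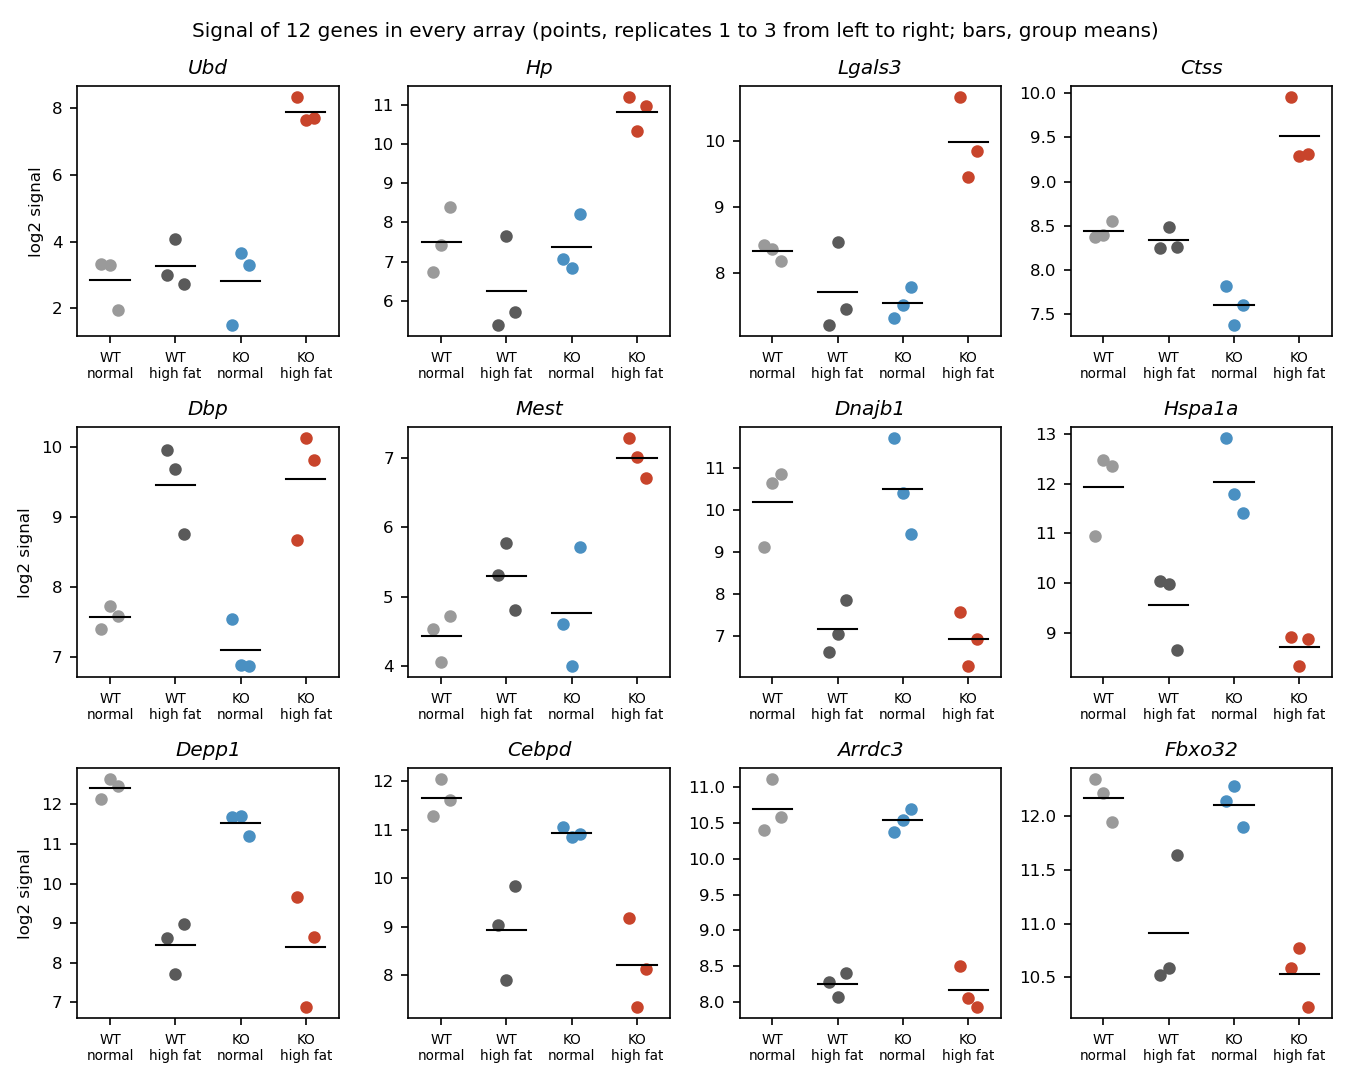
Log2 signal (y axis) of 12 genes in every array by group (x axis), with points for single mice and bars for group means. Ubd, Hp, Lgals3 and Ctss stand apart in KO on HFD from all 3 other groups, whereas Dbp, Dnajb1, Hspa1a, Depp1, Cebpd, Arrdc3 and Fbxo32 move with diet in both genotypes.

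Acute phase and cytokine-induced genes held the largest rises in the comparison. Of 20 tested members, 5 rose and 0 fell, with a median difference of 0.54. Ubd, which encodes the ubiquitin-like protein FAT10 induced by interferon gamma and tumour necrosis factor, had signals of 1.51, 3.65 and 3.31 on ND and 8.31, 7.64 and 7.70 on HFD. Every HFD array lay far above every ND array, and the difference was 5.06 (SE 0.58, limma adjusted p = 0.00127). Ubd passed the filter only through the KO arrays on HFD (mean 7.88), as the means of the other groups were 2.82 to 3.28. Because the ND values lay below the filter level, the fold depends on a dim baseline. Adding an offset at the 50th percentile of signals before the log reduced the difference to 3.36. Hp, encoding the haemoglobin-binding plasma protein haptoglobin, had signals of 7.07, 6.84 and 8.22 on ND and 11.19, 10.33 and 10.96 on HFD. It rose by 3.45 (SE 0.55, limma adjusted p = 0.00449), a fold change of 10.9. Saa3, the serum amyloid A made outside the liver, had signals of 3.57, 1.98 and 3.90 on ND and 7.29, 6.12 and 5.97 on HFD and rose by 3.31 (SE 0.51, limma adjusted p = 0.00398). Its mean on ND was also below the filter level, and the difference was 2.0 with the same offset. These 3 genes passed without each KO mouse in turn. Cfb (complement factor B, 1.45) and Tnfaip2 (1.17) also rose but lost the call when single mice were left out, and the list count was then 3 to 5. The cytokine genes themselves gave less: Il1b had a difference of 1.43 with an adjusted p of 0.38 (limma), and Tnf and Il6 were below the filter.

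Several macrophage genes rose in KO muscle. Of the 21 tested markers, 8 rose and 0 fell, the median difference was 0.84, and 16 had KO arrays that did not overlap in the upward direction (16.3% of all tested genes did so). Lgals3, encoding galectin-3, had signals of 7.32, 7.52 and 7.79 on ND and 10.67, 9.45 and 9.86 on HFD. The diets were separated by more than a full log2 unit, and the difference was 2.45 (SE 0.31, limma adjusted p = 0.00197). Tyrobp, the adaptor of myeloid activating receptors, had signals of 6.4, 6.62 and 6.78 against 8.53, 7.80 and 8.39 and rose by 1.64. Mpeg1, the macrophage perforin, rose by 1.89 and Adgre1, which encodes a defining macrophage surface antigen, rose by 1.11 with tight groups (6.36, 6.42 and 6.56 on ND and 7.74, 7.42 and 7.5 on HFD). Gpnmb, a lysosomal glycoprotein of lipid-laden macrophages, had signals of 5.58, 6.07 and 5.95 against 7.78, 7.31 and 7.07 and rose by 1.52. The remaining calls were Clec7a (1.72), Lyz2 (1.07) and C1qb (0.91). Among markers that did not pass, Cd163 and Msr1 had differences of -0.08 and -0.17, and Itgam, Itgax, Trem2, Aif1 and Cx3cr1 were below the filter. The count fell to 5 without ND replicate 1 or 2 and without HFD replicate 1 or 3, and was 5 when this control-probe measure of RNA integrity entered as a covariate.

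The summed signal of these macrophage markers ranged from 3376 to 4547 in KO on ND and from 5856 to 10022 in KO on HFD, with HFD replicate 1 at the top. In WT it ranged from 4899 to 5481 on ND and from 2992 to 6117 on HFD. All KO arrays on ND therefore lay below all WT arrays on ND. Neutrophil markers gave no call in limma among 5 tested (1 lower at an unadjusted p under 0.05), with sums of 159 to 184 on ND and 132 to 211 on HFD, and Mpo, Elane, Camp, Cxcr2 and Mmp8 were below the filter. Mast cell and B cell markers gave no call in limma among 5 and 3 tested (1 mast cell and no B cell marker at an unadjusted p under 0.05), and Thy1, the only T cell marker above the filter, had a difference of 0.72 that did not pass. The part that macrophage number had in the changes of other immune genes was not tested.

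**Figure D2:**
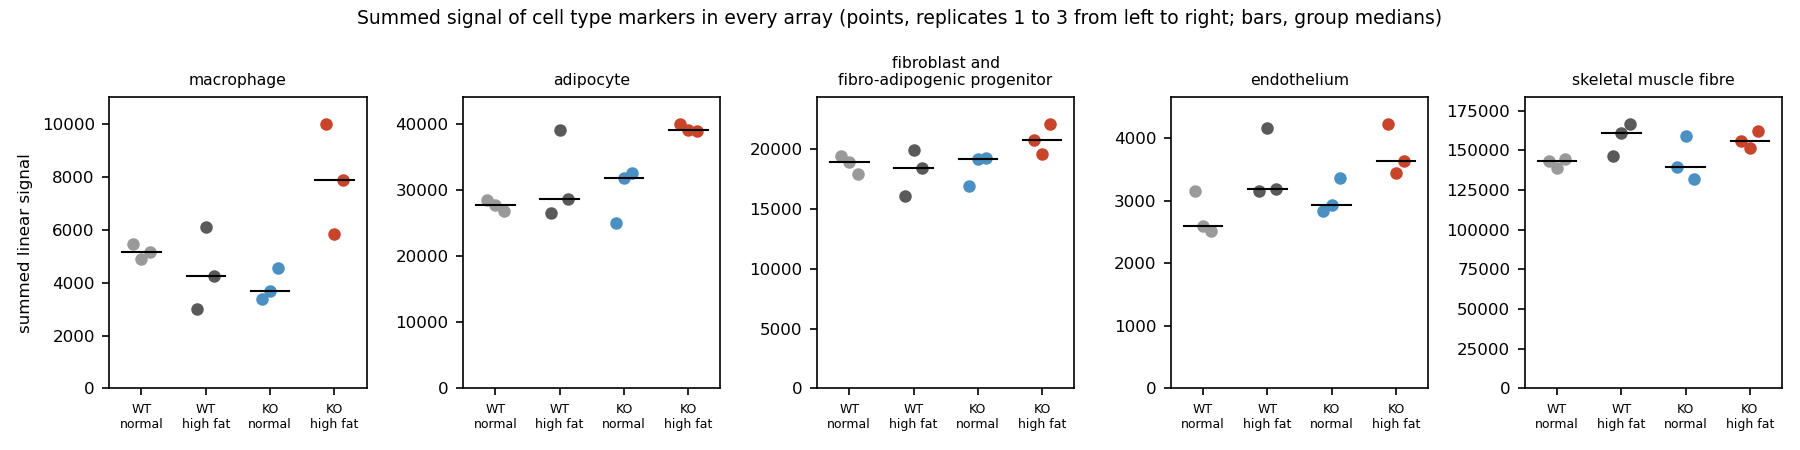
Summed linear signal of 5 cell type marker lists (y axis from 0), in every array by group, with points for mice and bars for group medians. Macrophage sums range from 3376 to 4547 in KO on ND and from 5856 to 10022 in KO on HFD, where 1 mouse lies below the highest WT mouse on HFD, adipocyte sums separate the KO diets, and muscle fibre sums overlap.

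Some genes of the lysosome rose. Of 19 tested lysosomal genes, 6 rose and 0 fell, with a median of 0.48. Ctss, encoding cathepsin S, the protease that trims the class II invariant chain in antigen-presenting cells, had signals of 7.82, 7.38 and 7.61 on ND and 9.95, 9.29 and 9.31 on HFD. Its rise of 1.92 (SE 0.17, limma adjusted p = 0.000192) was a 3.78-fold change and had the smallest adjusted p of all genes that rose. Cstb, encoding the cathepsin inhibitor cystatin B, rose by 0.66, and Ctsb (0.48), Hexa (0.48) and the membrane protein gene Lamp1 (0.27) rose by less. Ctss, Cstb and Gpnmb passed without each KO mouse, whereas the list count fell to 3 in 5 of the 6 cases (5 without HFD replicate 2). Ctsd and Ctsl, the broadly expressed cathepsins D and L, had differences of 0.13 and -0.21 and did not pass.

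A few antigen presentation and interferon genes rose. Among 17 antigen presentation genes 4 rose and 0 fell, with a median of 0.69. They were the class II genes H2-Aa (9.0, 9.44 and 9.65 on ND against 10.44, 10.20 and 10.18 on HFD, a rise of 0.91) and H2-Ab1 (0.89), the class I light chain B2m (0.86) and the peptide-loading factor Tapbp (0.71). Of these only Tapbp passed without each KO mouse, and the list count was 1 without ND replicate 1, ND replicate 2 or HFD replicate 1, and 2 without HFD replicate 3. Among 23 interferon-stimulated genes 5 rose and 0 fell, with a median of 0.63. Ifi27l2a had signals of 7.72, 8.92 and 9.18 on ND and 10.92, 11.29 and 10.43 on HFD and rose by 2.28 (SE 0.37, limma adjusted p = 0.00479). Ifit2 (0.97), Ddx58 (0.86), Gbp2 (0.80) and the transcription factor gene Irf1 (0.75) rose by less, while Ifit3 and Oas1a had differences of 1.52 and 1.97 that did not pass. The interferon count was 1 to 3 when any KO mouse was left out (3 without ND replicate 1, 1 without HFD replicate 3, otherwise 2) and 2 after quantile normalization. With arrays centred on the median of all probe sets, 1 gene of each list passed.

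Complement and chemokine genes gave a few rises. Of 11 complement genes 3 rose, namely Cfb, C1qb and the C3a receptor gene C3ar1, which had signals of 4.35, 4.02 and 4.67 on ND and 6.08, 5.92 and 5.94 on HFD and rose by 1.63. No complement gene passed without ND replicate 2, and 1 passed without ND replicate 1, HFD replicate 1 or HFD replicate 3. Among 18 chemokine genes and receptors only Ccl8 rose, by 2.03 (SE 0.43, limma adjusted p = 0.0212). Its signals were 6.16, 5.64 and 5.71 against 7.53, 7.51 and 8.56, with HFD replicate 3 the highest. It lost the call without ND replicate 2, ND replicate 3 or HFD replicate 3. Ccl2, the classical monocyte attractant, had a difference of -1.35 that did not pass.

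Some collagens and other matrix genes rose in KO muscle on HFD. Of 20 collagens 6 rose and 0 fell, with a median of 0.51, and all 6 encode chains of types I, III, V and VI. Col3a1 had signals of 11.28, 10.84 and 11.29 on ND and 12.75, 12.02 and 12.34 on HFD and rose by 1.24 (SE 0.25, limma adjusted p = 0.0166). Rises of 0.73 to 0.96 were found for Col1a1, Col1a2, Col5a1, Col5a2 and Col6a2, with other probe sets at 2.03 for Col1a1, 0.48 for Col5a1 and 0.44 to 1.18 for Col1a2, while the basement membrane genes Col4a1 and Col4a2 had differences of 0.07 and -0.07 and did not pass. Of 36 matricellular and glycoprotein genes 5 rose and 1 fell. Postn, encoding periostin, had signals of 7.16, 6.75 and 7.52 against 9.51, 8.20 and 8.86 and rose by 1.71, and Prelp (1.49), Bgn (0.99), Sparc (0.78) and Dpt (0.66) also rose. Ccn1, a matricellular gene that is also an immediate early gene, fell by 1.94. Pcolce, the enhancer of procollagen C-terminal cleavage, rose by 0.97 as the single call among 25 matrix proteases, inhibitors and crosslinkers.

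HFD replicate 1 carried the highest signal of the 3 HFD mice in all 6 called collagens, and in 154 of the 302 genes called higher (51.0%). No collagen passed without HFD replicate 1, HFD replicate 3 or ND replicate 2, and 2, 3 and 5 passed without ND replicate 1, ND replicate 3 and HFD replicate 2. The rise of the 5 matricellular genes was reduced to 1 call without HFD replicate 1, HFD replicate 3 or ND replicate 1, and to none without ND replicate 2, and the Pcolce call was lost without HFD replicate 1, HFD replicate 3 or ND replicate 2. The 14 fibroblast and fibro-adipogenic progenitor markers, among which Dpt and Pcolce were the only calls, summed to 16982 to 19270 on ND and 19607 to 22147 on HFD. Pdgfra, the defining marker of the progenitors, had a difference of 0.21 that did not pass, and Dcn one of -0.07. The part of these cells in the collagen result was not tested.

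**Figure D3:**
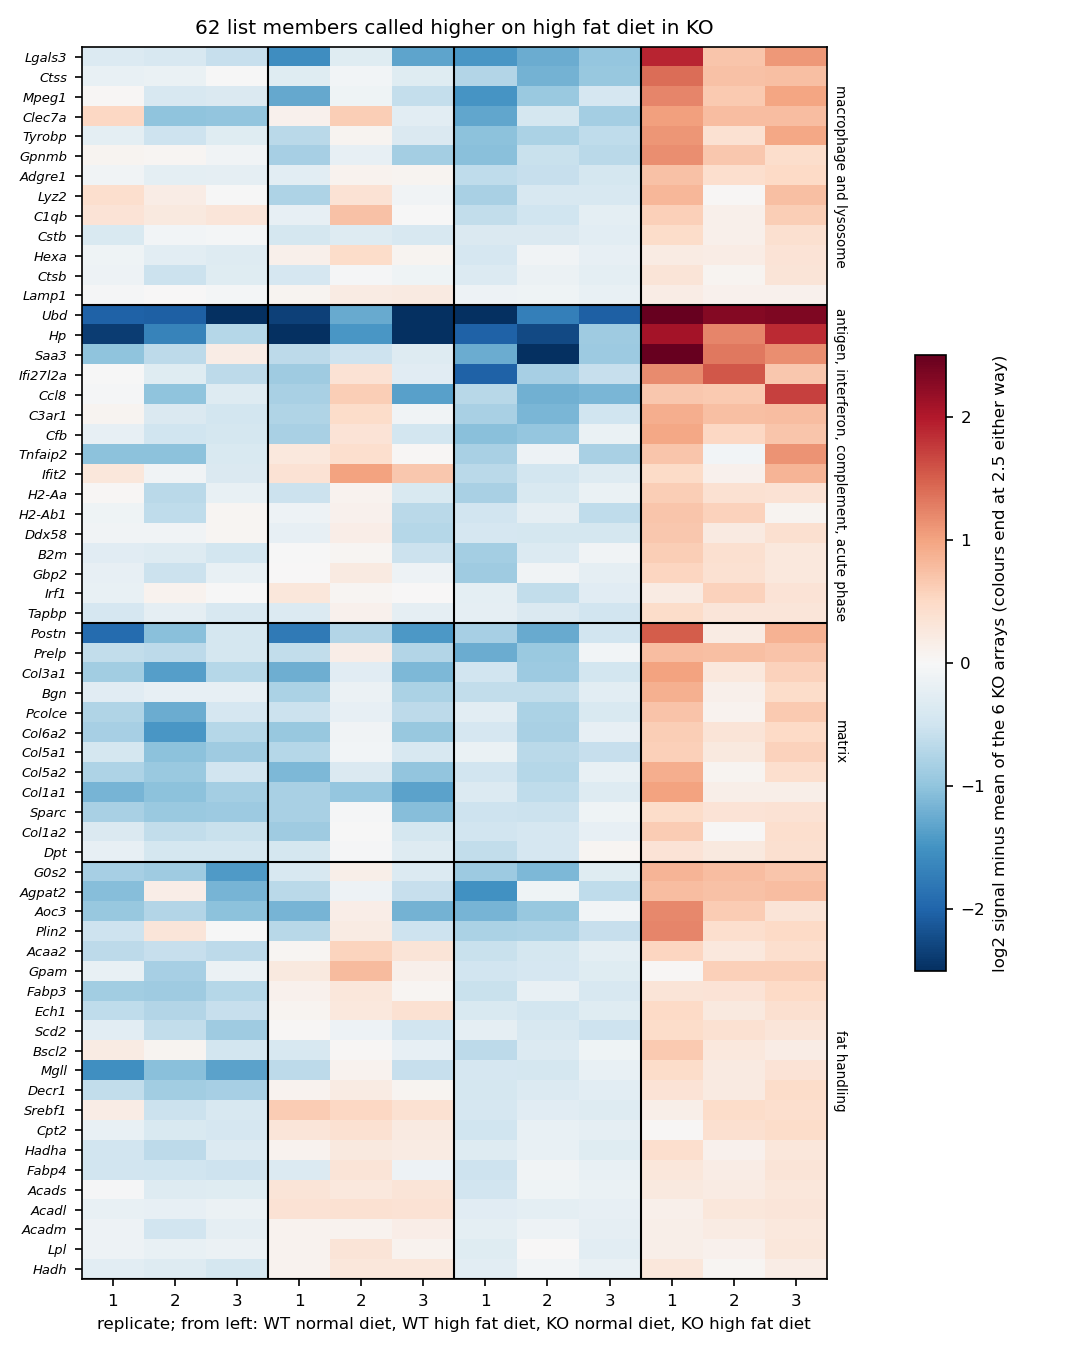
Log2 signal minus the mean of the 6 KO arrays (colour) for 62 list members called higher in KO, in rows, across the 12 arrays in columns. The 3 KO arrays on HFD at the right are red in nearly every row, an exception being HFD replicate 2 for Tnfaip2, and HFD replicate 1 is the deepest in many macrophage and matrix rows.

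A minority of adipocyte and lipid-storage genes rose on HFD. Of 14 adipocyte markers 2 rose, Fabp4 (0.53, other probe sets 0.02 to 0.47) and Aoc3 (1.45), and the median was 0.71. Neither passed with arrays centred on the median of all probe sets. Lep, encoding leptin, had the largest difference of the list, 3.66, and Adipoq, encoding adiponectin, one of 1.71, and neither passed (limma adjusted p = 0.1 and 0.098). The adipocyte sum was 25006 to 32508 on ND and 38936 to 39971 on HFD, with carbonic anhydrase gene Car3, which muscle also expresses, the brightest member at a difference of 0.02. Of 19 lipid droplet and lipolysis genes 5 rose. Plin2, which coats lipid droplets in non-adipose cells, had signals of 7.55, 7.58 and 7.77 against 9.58, 8.77 and 8.84 and rose by 1.43, and G0s2, the inhibitor of adipose triglyceride lipase, had 7.10, 6.89 and 7.70 against 8.85, 8.79 and 8.71 and rose by 1.55. Both passed without each KO mouse. Mgll (0.69), Bscl2 (0.74) and Lpl (0.37) rose by less. Of 25 triglyceride and fatty acid synthesis genes 4 rose, namely Agpat2 (1.52), Gpam (0.81), Scd2 (0.76) and the regulator Srebf1 (0.68). No triglyceride synthesis gene passed without HFD replicate 2, HFD replicate 3 or ND replicate 3, 1 passed without ND replicate 1 or 2, and 2 without HFD replicate 1. The Fabp4 call was lost without each KO mouse in turn and the Aoc3 call without any except ND replicate 3, and only 2 to 4 lipid droplet genes passed without single KO mice (2 without ND replicate 1 or any HFD mouse, 3 without ND replicate 2). None of 18 cholesterol synthesis genes passed (3 higher and 1 lower at an unadjusted p under 0.05).

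Genes of fatty acid uptake and beta oxidation formed the longest set of rises. Of 33 tested members 11 rose and 0 fell, with a median of 0.31. The cytosolic fatty acid carrier Fabp3 had signals of 12.40, 12.77 and 12.56 on ND and 13.28, 13.29 and 13.46 on HFD and rose by 0.77 (SE 0.10, limma adjusted p = 0.00197), although its other probe set gave -0.04. Ech1, encoding an auxiliary enzyme for unsaturated fatty acids, had signals of 11.16, 11.08 and 11.24 against 12.04, 11.79 and 11.94 and rose by 0.77, and Decr1, of the same auxiliary pathway, rose by 0.69. The thiolase gene Acaa2 rose by 0.82 and the dehydrogenase gene Acadl by 0.48. These 5 passed without each KO mouse. Smaller rises of 0.34 to 0.60 were found for Cpt2, Hadha, Acads, Acadm and Hadh, besides Fabp4, while Cd36 had a difference of 0.47 with an adjusted p of 0.051 (limma). The list count was 5 without ND replicate 1 or HFD replicate 3, 6 without ND replicate 2, 7 without ND replicate 3 or HFD replicate 1, and 4 higher and 1 lower with arrays centred on the median of all probe sets.

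Other lists of energy metabolism gave no call. None of 65 oxidative phosphorylation genes, 23 citric acid cycle genes, 30 glycolysis and glycogen genes and 73 mitochondrial ribosomal protein genes passed in limma, with medians of 0.06, 0.03, -0.01 and 0.02. At an unadjusted p under 0.05 the oxidative phosphorylation list held 4 higher and 0 lower, the citric acid cycle none, glycolysis 2 and 3, and the ribosomal list 4 and 4. In WT the same lists held 15 and 5 genes called higher for oxidative phosphorylation and the citric acid cycle, and 18 of the 33 fat oxidation genes (3.07% of all genes were called higher in WT). Of the citric acid cycle genes, Idh2 differed between genotypes by -0.88 in the interaction (limma adjusted p = 0.036), with a WT difference of 0.95 and a KO difference of 0.08. That call was kept under 9 of 25 alternatives, and with probe sets averaged the value was -0.51 with an adjusted p of 0.487 (limma). A list of fatty-acid-induced fuel switch genes gave 3 rises among 22 tested, namely Plin2, Ppargc1b (0.90) and Aldh1a1 (0.68). Besides targets of PPAR receptors, this list holds the receptors themselves and coactivators. Pdk4, the kinase that closes the pyruvate entry to the citric acid cycle, had a difference of -0.32, Ucp3 one of -0.17 and Angptl4 one of 0.86, and none of these passed. That count was 1 without ND replicate 1, ND replicate 2, HFD replicate 1 (with 1 lower) or HFD replicate 3, and 2 without ND replicate 3.

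**Figure D4:**
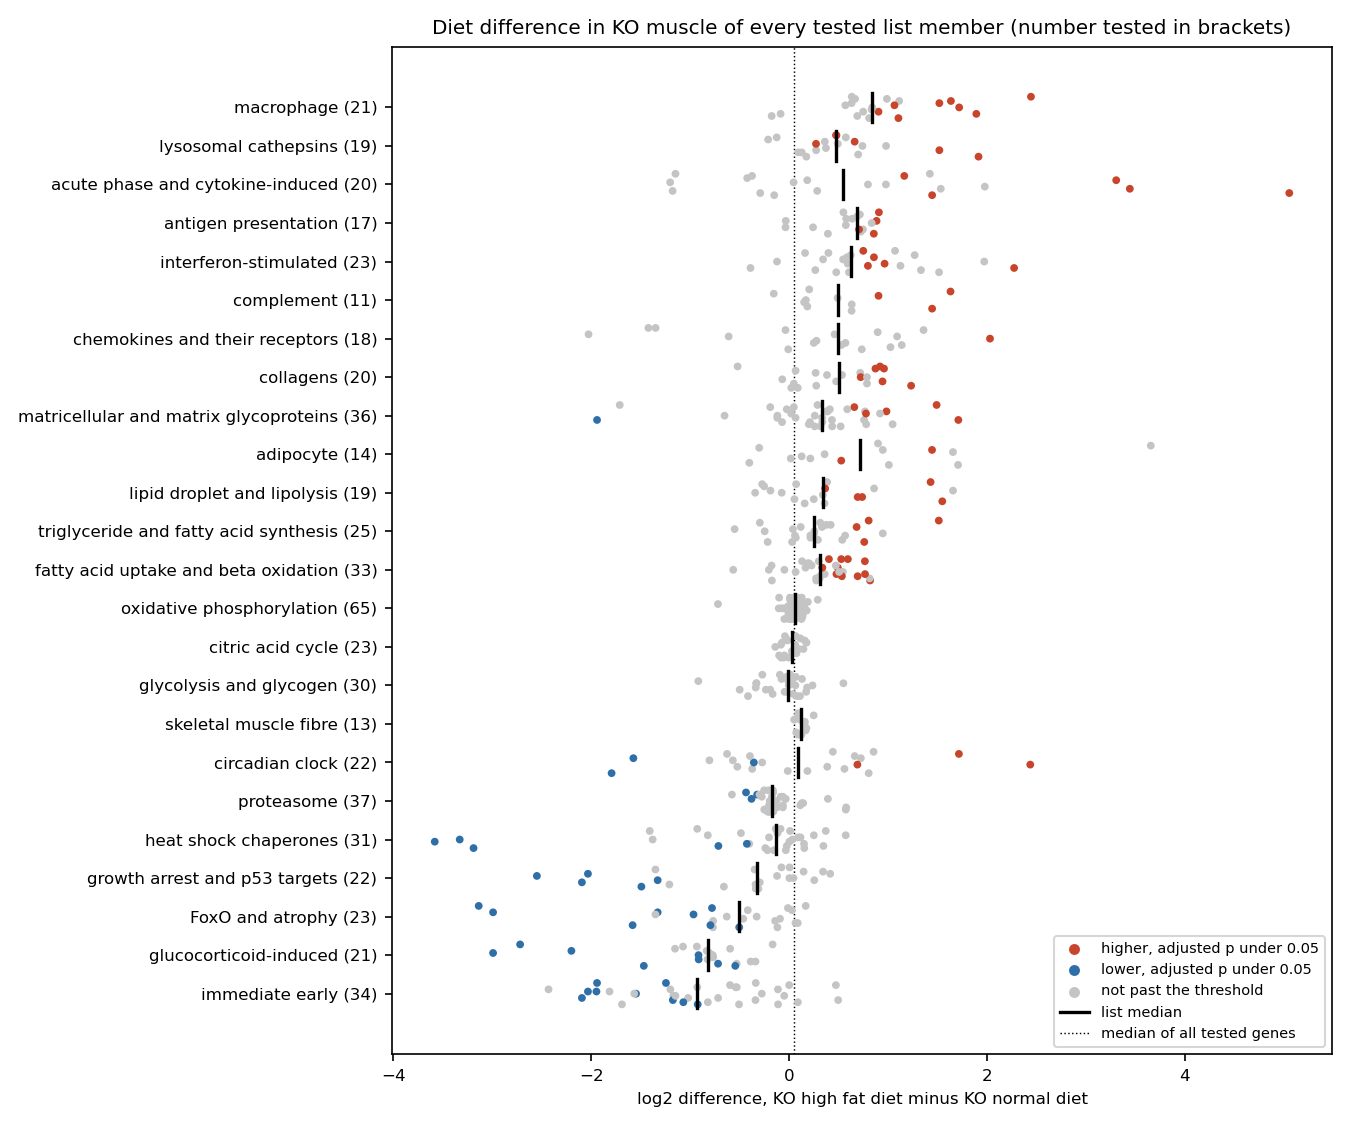
Log2 difference between KO diets (x axis) of every tested member of 24 gene lists (rows), coloured by call, with list medians as black bars and the median of all tested genes, 0.05, as a dotted line. Macrophage and immune lists lie to the right (macrophage median 0.84), energy metabolism lists at the dotted line, and FoxO, glucocorticoid and immediate early lists to the left (medians -0.50, -0.82 and -0.92).

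Part of the genes induced by glucocorticoids and by FoxO transcription factors fell on HFD. Of 21 glucocorticoid-induced genes 8 fell and 0 rose. Differences in the list ran from -2.99 to -0.16, with a median of -0.82 beside 0.05 for all tested genes. Cebpd, encoding a C/EBP transcription factor, had signals of 11.06, 10.84 and 10.91 on ND and 9.17, 7.35 and 8.14 on HFD and fell by 2.72 (SE 0.44, limma adjusted p = 0.00488), with its other probe set at -1.31. Its partner Cebpb fell by 0.91 with almost no spread on ND (11.25, 11.22 and 11.21 against 10.32, 10.18 and 10.44). Fkbp5, the co-chaperone that feeds back on the glucocorticoid receptor, fell by 0.91, and Tsc22d3, encoding GILZ, and Klf9 had falls of -0.72 and -0.54. The other probe sets of Tsc22d3 ranged from -1.01 to 0.14, those of Klf9 from -1.06 to -0.25, and that of Fkbp5 gave -0.52. Of 23 FoxO and atrophy genes 8 fell and 0 rose, with a median of -0.50. Depp1, a FoxO-induced gene linked to autophagy, had signals of 11.67, 11.71 and 11.21 against 9.65, 6.88 and 8.64 and fell by 3.14. Ddit4, encoding the mTORC1 inhibitor REDD1 and shared by both lists, had 10.88, 11.26 and 11.35 against 9.17, 6.91 and 8.43 and fell by 2.99. HFD replicate 2 was the lowest for both genes.

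The muscle ubiquitin ligases of the atrophy programme were part of this set. Fbxo32, encoding atrogin-1, had signals of 12.14, 12.28 and 11.90 on ND and 10.59, 10.77 and 10.22 on HFD and fell by 1.58 (SE 0.24, limma adjusted p = 0.00398), a fold of 2.99, with other probe sets from -1.90 to -0.55. Trim63, encoding MuRF1, had 13.12, 13.10 and 12.96 against 12.04, 12.48 and 12.28 and fell by 0.79. Fbxo30, Gadd45a, Eif4ebp1 and Zfand5 also fell, with differences of -0.78, -1.33, -0.96 and -0.50. FoxO1 and FoxO3 messages themselves did not pass, at -0.42 for Foxo1 and -0.46 for Foxo3. Fbxo32, Trim63, Depp1, Gadd45a and Eif4ebp1 passed without each KO mouse, and the list count was 5 without ND replicate 2 and 6 to 8 otherwise. The glucocorticoid count was 3 without ND replicate 2, 5 without ND replicate 1 or HFD replicate 2, and 6 to 7 otherwise. In WT the same lists had 15 (glucocorticoid) and 10 (FoxO) genes called lower, against 2.99% of all genes, with medians of -1.10 and -0.45. Arrdc3 and Arrdc2, alpha-arrestins that act on receptor and glucose transporter traffic, had falls of -2.38 and -2.20. Arrdc3, with signals of 10.37, 10.55 and 10.70 against 8.5, 8.05 and 7.93, had the smallest adjusted p of the comparison (SE 0.18, limma adjusted p = 6.43e-05).

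Some immediate early and growth arrest genes fell as well. Of 34 immediate early genes 9 fell and 0 rose, with a median of -0.92. Btg2, an antiproliferative gene, had signals of 10.87, 10.32 and 10.49 on ND and 9.16, 7.70 and 8.54 on HFD and fell by 2.09. Maff (-1.95), Gadd45g (-2.03), Ier5 (-1.55), Klf6 (-1.24), Myc (-1.17), Jun (-1.07) and Klf10 (-0.92) also fell, besides Ccn1. Another probe set of Jun gave -0.38, and those of Klf6 ranged from -1.37 to -0.57. Fos, Egr1 and Junb had differences of -1.17, -0.27 and -0.93 and did not pass, and Ier2 one of 0.50. Of 22 growth arrest and p53 target genes 5 fell, led by Cdkn1a, encoding the cell-cycle inhibitor p21, with 10.35, 10.10 and 9.92 against 8.18, 6.76 and 7.77 and fell by 2.55. Ccnd2, a D-type cyclin, rose by 0.86. The immediate early count was 4 without ND replicate 1, 5 without HFD replicate 3 and 6 without ND replicate 3 or HFD replicate 2. The growth arrest count was 2 without ND replicate 2 or HFD replicate 3 and 3 without ND replicate 1 or HFD replicate 2.

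A few insulin-related genes were called. Of 30 insulin signalling genes 1 rose and 3 fell, against 2.66% and 1.88% of all tested genes. Irs2, an adaptor of the insulin receptor, had signals of 8.13, 8.23 and 8.75 on ND and 7.09, 6.85 and 7.14 on HFD and fell by 1.34 (SE 0.22, limma adjusted p = 0.00488). Grb14, an inhibitor of the insulin receptor, had 7.25, 7.16 and 7.10 against 7.87, 7.96 and 7.90 and rose by 0.74, a call lost without ND replicate 2 or HFD replicate 3. Insr, Irs1 and Slc2a4, the genes of the receptor, its other main adaptor and the glucose transporter GLUT4, had differences of -0.12, 0.10 and -0.02 and did not pass.

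Inducible cytosolic chaperones showed some of the largest falls. Of 31 tested heat shock genes 5 fell and 0 rose, with a median of -0.13 beside 0.05 for all tested genes. Dnajb1, encoding the inducible HSP40, had signals of 11.70, 10.39 and 9.41 on ND and 7.56, 6.28 and 6.92 on HFD. It fell by 3.58 (SE 0.56, limma adjusted p = 0.00408), a fold of 12. Hspa1a and Hspa1b, which encode inducible HSP70, had signals of 12.92, 11.79 and 11.41 against 8.92, 8.33 and 8.88, and of 13.14, 12.65 and 12.44 against 10.08, 8.82 and 9.76. They fell, with differences of -3.33 and -3.19, and because they are near-identical copies their probe sets may not separate them. ND replicate 1 was the highest of the ND mice for all 3 genes. The constitutive Hspa8 fell by 0.43, with other probe sets from -1.72 to -0.60, and Hsf2, a heat shock factor, fell by 0.71, while another Hsf2 probe set gave 0.02 and both calls were lost without single KO mice. Hsph1, Hspd1, Hspe1 and Chordc1 had differences of -0.02, -0.08, -0.20 and 0.01 and did not pass. The list count was 3 without ND replicate 1, ND replicate 2, HFD replicate 1 or HFD replicate 3.

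The promoters of the HSP70 pair show how alike the copies are. The stretch of 144 bases before each start site differs between them at 1 base, and 3 of the 250 bases before the start site differ. Capitals mark a pair of heat shock element half-sites, GAANNTTC, that begins at position -104 from the start site in each (RefSeq, GRCm38.p6, minus strand, chr17:34972157-34972300 and chr17:34959239-34959382).
Hspa1a: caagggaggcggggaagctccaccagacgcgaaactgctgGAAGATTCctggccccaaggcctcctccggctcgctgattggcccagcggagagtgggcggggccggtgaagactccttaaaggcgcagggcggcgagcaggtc
Hspa1b: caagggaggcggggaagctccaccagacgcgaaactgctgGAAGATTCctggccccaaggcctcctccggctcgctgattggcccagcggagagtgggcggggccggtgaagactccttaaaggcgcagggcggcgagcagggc
Searched on both strands as GAANNTTC or TTCNNGAA in windows from 250 bases before to 50 after the start site, this motif was in 2 of the 4 lower heat shock genes with a window, and in 11 of the 24 that did not pass. It was in 14.1% of tested genes with a window and in 15.1% of all 32851 windows. Chordc1, which has 5 matches in its window, more than either HSP70 gene, had a difference of 0.01.

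The unfolded protein and Atf4 list had members that moved in both directions. Of 35 tested 2 rose and 4 fell. Atf4, the transcription factor of the integrated stress response, had signals of 11.64, 11.41 and 11.13 against 10.76, 10.63 and 10.62 and fell by 0.72, Ppp1r15a, encoding the phosphatase subunit GADD34, fell by 1.99, and Chac1 and Slc7a5 had falls of -1.23 and -1.43. Phgdh and Psat1, enzymes of serine synthesis, rose by 1.41 and 1.13, and their calls were lost without any of several KO mice, with no rise left except 1 without HFD replicate 2 or ND replicate 3. The endoplasmic reticulum chaperone genes Hspa5, Hsp90b1 and Calr had differences of -0.13, 0.34 and 0.15 and did not pass. None of 7 small heat shock protein genes passed (1 higher at an unadjusted p under 0.05), whereas 4 were called lower in WT. Hspb7 differed between genotypes in the interaction by 2.73 (limma adjusted p = 0.0097), at -2.98 in WT and -0.26 in KO.

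Clock genes that passed lay in both directions. Of 22 tested 3 rose and 3 fell. Dbp, a PAR bZIP factor and direct output of the CLOCK-BMAL1 pair, had signals of 7.53, 6.88 and 6.87 on ND and 8.67, 10.12 and 9.82 on HFD and rose by 2.44 (SE 0.35, limma adjusted p = 0.00324). Per3 had 5.72, 5.16 and 5.48 against 6.60, 7.43 and 7.49 and rose by 1.72, and Usp2 rose by 0.69. Arntl, encoding BMAL1, had 8.54, 8.69 and 8.40 against 7.64, 6.25 and 6.37 and fell by 1.79, with its other probe set at -0.70. Nfil3, a repressor that binds the same D-box elements as Dbp, had 9.03, 8.60 and 8.96 against 7.05, 7.05 and 7.76 and fell by 1.57. HFD replicate 1 was the least shifted HFD mouse for Dbp, Per3 and Arntl. Csnk1a1 fell by 0.35. Per1, Per2, Nr1d1 and Cry1 had differences of -0.80, 0.56, -0.52 and -0.37 and did not pass. Dbp and Nfil3 passed without each KO mouse, whereas without ND replicate 2 or HFD replicate 3 only 1 gene rose and 1 fell, and 1 fell without ND replicate 1 or HFD replicate 2. In WT the differences of Dbp, Per3, Arntl and Nfil3 were 1.89, 1.55, -1.29 and -0.18. The sources do not give the hour at which the mice were killed.

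The Per3 and Trim63 promoters are shown because each held the motif searched for its group, a D-box (TTATGTAA) and a FoxO site (GTAAACA), in capitals. They lie at chr4:151044796-151044890 on the minus strand and at chr4:134314906-134314952 on the plus strand (RefSeq, GRCm38.p6).
Per3: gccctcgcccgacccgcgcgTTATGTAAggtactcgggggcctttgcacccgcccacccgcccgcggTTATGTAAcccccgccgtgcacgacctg
Trim63: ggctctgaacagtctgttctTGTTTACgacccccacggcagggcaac
The D-box matches of Per3 begin at -205 and -158 from its start site, and the Trim63 match, read on the other strand, begins at -194. On either strand, the D-box was in 1 of 3 higher, 0 of 2 lower and 1 of 13 other clock genes with a window, against 0.65% of tested genes. Its looser form TTANNTAA, which includes it, was in 1, 0 and 2 of these, against 4.32%. The E-box CACGTG was in none of the 5 called clock genes with a window and in 5 of 13 others, against 11.99%. The FoxO site was in 1 of 6 lower FoxO and atrophy genes and 1 of 13 others, and in 0 of 2 lower alpha-arrestins and 1 of 3 others, against 3.15%. The cyclic AMP element TGACGTCA was in 2 of 7 lower immediate early genes (Btg2 and Maff) and 1 of 21 others, against 3.47%, and in 0 of the 5 called clock genes and 1 of 13 others. The C/EBP site TTGCGCAA was in none of the called or other acute phase and glucocorticoid genes, against 0.3%.

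Contractile and muscle identity genes gave few calls. None of the 13 fibre markers, 17 fast fibre genes and 19 excitation-contraction coupling genes passed in limma (2, 2 and 3 higher and none lower at an unadjusted p under 0.05). Of 16 slow fibre genes 1 rose, the cardiac and slow calsequestrin gene Casq2, with signals of 7.57, 7.23 and 7.38 against 8.85, 8.20 and 8.36 and a rise of 1.08. Myog, encoding the myogenic factor myogenin, had 7.67, 6.99 and 7.83 against 6.04, 6.25 and 6.5 and fell by 1.23, the only call among 30 myogenic and denervation genes. Ky, needed for muscle growth and neuromuscular junction upkeep, had 7.30, 6.75 and 7.59 against 9.55, 8.85 and 9.62 and rose by 2.13 (SE 0.24, limma adjusted p = 0.00115). Of the satellite cell markers Sdc4 fell by 0.79, a call lost without each KO mouse in turn. Of 37 proteasome genes 3 fell, Psma7 (-0.43), Psmd12 (-0.38) and Psmb2 (-0.32), and the list median was -0.17. No proteasome gene passed without ND replicate 2, ND replicate 3, HFD replicate 1 or HFD replicate 3, and 1 passed without ND replicate 1. Among 45 cytosolic ribosomal protein genes Rpl12 alone fell, by 1.07, a share near the 1.88% of all tested genes called lower. Its call was lost without ND replicate 1 or 2. None of 12 pericyte and smooth muscle, 6 tendon, 8 Schwann cell and 5 brown adipocyte markers passed in limma (1 higher and 2 lower in all at an unadjusted p under 0.05).

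Growth, vascular and redox genes included several large single changes. Mest, an imprinted gene that rises in expanding fat, had signals of 4.60, 4.0 and 5.71 on ND and 7.28, 7.01 and 6.72 on HFD and rose by 2.23 (SE 0.38, limma adjusted p = 0.00635), the single call among 15 imprinted genes. Aplnr, the apelin receptor of endothelium, had 6.91, 7.11 and 7.41 against 9.43, 9.54 and 9.42 and rose by 2.32, with its other probe set at 0.84. Angpt1, the ligand of the endothelial TIE2 receptor, rose by 1.6, and Flt1, encoding VEGF receptor 1, fell by 0.78 with other probe sets from -0.68 to 0.02. Flt1 and Aplnr were the only calls among 17 endothelial markers, and the endothelial sum was 2841 to 3372 on ND and 3446 to 4233 on HFD. Of 31 redox genes 3 fell. Pon1, encoding the antioxidant esterase paraoxonase, had 5.40, 5.92 and 5.21 against 2.33, 2.56 and 1.0 and fell by 3.55. Its HFD mean lay below the filter level, and the difference was -1.59 with the same offset as for Ubd. Nfe2l2, encoding NRF2, and its target Gclc, of glutathione synthesis, had falls of -0.59 and -0.78. Of 26 growth factor genes 2 rose (Fstl1, 0.77, and Igfbp7, 0.52) and 2 fell (Igfbp3, -1.36, and the activin receptor gene Acvr1b, -0.89). Ivd of leucine breakdown fell by 0.55, and with Slc7a5 was 1 of 2 calls among 29 amino acid genes. Of 26 autophagy genes Lamp1 and Atg7 (0.90, other probe set -0.24) rose and Gabarapl1 fell by 1.14. Aox1 rose by 0.60, the single call among 15 genes of NAD metabolism. Calls of Flt1, Nfe2l2, Gclc, Fstl1, Igfbp7, Igfbp3, Acvr1b, Ivd, Atg7 and Aox1 were each lost without ND replicate 2, and most were lost without other KO mice too. Over the 6 fits without single KO mice, Fstl1 and Atg7 kept the call in 0, and Flt1, Nfe2l2, Igfbp7 and Aox1 in 1. Acvr1b and Ivd kept it in 2, Igfbp3 in 3 and Gclc in 4.

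Of 9 genes listed for fatty acid receptors and uptake, 6 had a single-gene probe set and 4 were tested, with Cd36 and Arrb2 among them. Ffar2, the short-chain fatty acid receptor, was the single call and rose. Its signals were 2.63, 4.07 and 4.61 on ND and 5.96, 6.14 and 5.43 on HFD, and the difference was 2.08 (SE 0.55, limma adjusted p = 0.0485). Its mean on ND was 3.77, just below the filter level of 3.78, and the difference was as low as 1.24 under other settings. Its other probe set gave 0.69, and the call was lost without any KO mouse other than ND replicate 3. Arrb2, encoding the beta-arrestin through which GPR120 signals, had a difference of 0.51 that did not pass, and Gpr84 was below the filter.

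Other genes with large differences belonged to no list. Cd84, a leukocyte adhesion receptor, rose by 2.12, Sncg, encoding gamma-synuclein, by 2.15 and Wfdc21 by 2.16. Tmem45b (2.25), Slc4a10 (2.10), Speer4f1 (2.49) and BC048679 (1.71) also rose. Tgif1, a transcriptional repressor, fell by 1.96, Shroom3 fell by 1.99 with its other probe set at 0.11, and Snhg1, Tmem140, Zcchc2, Napb and Twf2 had falls of -1.47, -1.51, -1.43, -1.24 and -0.80. Cd84, Slc4a10 and Speer4f1 had ND means, and Shroom3 an HFD mean, below the filter level, and with an offset at the 50th percentile of signals their differences were 1.07, 1.07, 1.28 and -1.08. The rises of Cd84, Sncg, Wfdc21, Tmem45b, Slc4a10 and Speer4f1 were each lost without HFD replicate 3, and most were lost without other KO mice too. Over the 6 fits without single KO mice, Sncg, Wfdc21, Tmem45b and Speer4f1 kept the call in 1, Slc4a10 in 2 and Cd84 in 4. By contrast, BC048679, Tgif1, Snhg1, Tmem140, Zcchc2, Napb, Twf2 and Shroom3 passed without each KO mouse.

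The diet difference was then set beside that of WT muscle, which shares no array with it. Of the 302 genes that rose in KO, 240 had a WT difference above 0 and 67 were also called higher in WT (3.07% of all tested genes were). Of the 213 that fell, 197 had a WT difference below 0 and 95 were also called lower (2.99% of all). The median difference of the KO risers was 0.85 in KO and 0.29 in WT, and that of the KO fallers was -0.81 and -0.57, where choosing genes on the KO difference favours the larger KO value. Only Ifi30, encoding a lysosomal thiol reductase and named here, like Rras2, after its values were seen, was called in opposite directions, at 0.57 in KO and -0.53 in WT, with an interaction adjusted p of 0.05 in limma that rounds to the threshold and did not pass.

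The interaction, which tests the KO minus the WT diet difference, passed for 16 genes (0.141% of those tested), 9 with the KO difference above that of WT and 7 below. The unadjusted p was under 0.05 for 1178. Tmem87a had the smallest adjusted p of the 16, with an interaction of 2.92 (limma adjusted p = 0.000836) and differences of -2.72 in WT and 0.19 in KO. Capn3 (-0.97), Net1 (1.59), Vamp7 (0.79), Neat1 (-0.95), Oip5os1 (-0.70), Hspb7 and Idh2 were, like Tmem87a, called in WT and not in KO. Of 25 alternatives, 25 kept Tmem87a, 23 kept Capn3 and Hspb7, and 7 to 12 kept each of the others. Of the 515 genes called in KO, 8 passed the interaction. Ctss had signals of 8.37, 8.40 and 8.56 in WT on ND and 8.25, 8.49 and 8.26 in WT on HFD, so its KO values lay below both WT groups on ND and above both on HFD, and the interaction was 2.03 (SE 0.24, limma adjusted p = 0.00602). Lgals3 had 8.42, 8.37 and 8.19 in WT on ND and 7.21, 8.47 and 7.46 in WT on HFD, an interaction of 3.06. Gpnmb had 6.69, 6.68 and 6.53 and then 5.80, 6.43 and 5.77, an interaction of 2.15. For Hp the WT values were 6.73, 7.43 and 8.38 on ND and 5.39, 7.65 and 5.73 on HFD and the interaction was 4.71, and for Ubd all WT values lay between 1.96 and 4.08 and the interaction was 4.64. Because 3 of the 4 groups had Ubd means below the filter level, this size is uncertain (3.22 to 5.14 over the alternatives), and the call was kept under 7 of 24. In the other direction, Mpp3, a membrane scaffold gene, had KO signals of 7.39, 7.10 and 7.62 on ND and 6.36, 5.82 and 6.14 on HFD, with an interaction of -1.51. Me3, encoding mitochondrial malic enzyme, had 8.30, 8.54 and 8.55 against 7.84, 7.94 and 7.76 and an interaction of -0.97, and the noncoding A930005H10Rik had 9.07, 9.17 and 9.15 against 8.39, 8.35 and 8.16 and one of -1.01.

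**Figure D5:**
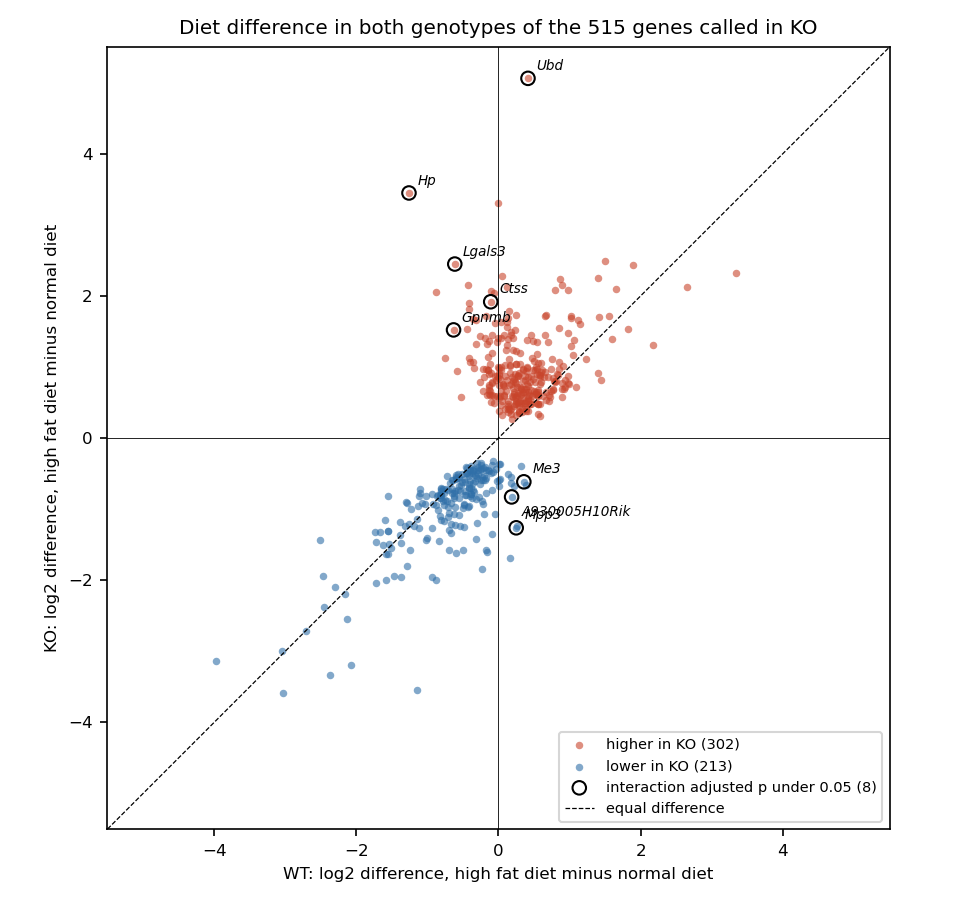
Log2 diet difference in WT (x axis) and KO (y axis) of the 515 genes called in KO, red for the 302 higher and blue for the 213 lower, with the 8 that pass the interaction circled and a dashed line of equal difference. Ubd, Hp, Lgals3, Ctss and Gpnmb lie far above the line and Mpp3, A930005H10Rik and Me3 below it.

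Among genes that did not pass the interaction, several called in KO had a WT difference of the opposite sign. Mpeg1, Cela1, Hebp1, Ccl8, Wfdc21, Saa3 and Mtarc1 rose by 1.81 to 3.31 in KO with WT differences of -0.88 to -0.01, and their interaction adjusted p-values in limma were 0.057 to 0.26. On the lower side Myog (-1.23 in KO, 0.26 in WT), Tmem100 (-1.69 and 0.17), Cited2 (-0.65 and 0.39) and Flvcr1 (-0.68 and 0.22) had interaction adjusted p-values of 0.096 to 0.14 in limma, and the other probe sets of Tmem100 and Flvcr1 gave -0.46 and -0.17 in KO. Ggact, Snord104 and Snhg4 fell in KO, with differences of -0.67, -0.63 and -0.59, with WT differences of 0.01, 0.18 and 0.01. In fits without single KO mice, these 3 genes kept the KO call in 0 of 6. Mtarc1 and Wfdc21 kept it in 1, Cited2 in 2, Ccl8 and Flvcr1 in 3 and Hebp1 in 5. Mpeg1, Cela1, Saa3, Myog and Tmem100 passed without each KO mouse.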

How the data were processed

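Muscle RNA from 12 mice was hybridised to 1-colour Affymetrix arrays of 45101 probe sets. The deposited values are log2 signals made by the authors with MAS5, per the submitters' processing notes (version not given in the sources used here), and each array has the same trimmed mean. They were used as deposited, and neither array depth nor detection calls were used. Control probe sets (64) were left out, 34945 probe sets with 1 gene symbol were kept (932 had several and 9160 none), those with a mean log2 signal above the median of 3.78 were retained, and the brightest probe set stood for each gene. All 12 arrays entered 1 limma fit (version 3.58.1, R 4.3.3, empirical Bayes with intensity trend), and p-values were adjusted over 11345 genes by Benjamini-Hochberg, with a threshold of 0.05. The fit was also run on simulated data with independent noise. These held no array-wide shift or outlying mouse, so that run does not bear on either. Named genes are up to 15 per direction by size, 8 per direction by adjusted p, up to 12 per direction of the interaction, up to 10 per direction with opposite WT sign, the fatty acid receptors, and list members that passed or describe a list. Genes and lists were chosen with earlier results of these data known, and no list was tested as a set. Replicates are single mice, 3 per group. The p-values rest on the spread between mice within groups, pooled over all groups including WT and moderated across genes. Alternatives covered scaling, offsets, filters, probe set choice, variance model, array weights, RNA integrity and each mouse left out. Gene symbols follow platform annotation, with 34741 probe sets matched to RefSeq by gene ID.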

Additional observations from a re-analysis of the deposited data

Results flagged for a closer look

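The diet difference of 8 genes called in KO differed between KO and WT in the interaction test (limma, adjusted over all genes tested). The KO minus WT difference was 4.64 for Ubd, with an adjusted p in limma of 0.048 that ranged from 0.000553 to 0.181 over 24 alternatives, of which 7 kept the call. It was 4.71 for Hp, 3.06 for Lgals3 and 2.15 for Gpnmb, with adjusted p-values of 0.036, 0.018 and 0.018 (ranges 0.00338 to 0.139, 0.00239 to 0.0971 and 0.00544 to 0.0777 over 25 alternatives, limma), and 14, 19 and 19 of these kept the calls. For Ctss it was 2.03, and 24 of 25 alternatives kept the call. On the other side it was -1.51 for Mpp3, -1.01 for A930005H10Rik and -0.97 for Me3, kept under 9, 11 and 12 of 25 alternatives.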

How the results depend on the processing

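The KO count of 515 was 232 without the intensity trend, 881 with array weights and 265 with the RNA integrity measure as a covariate. The 302 higher genes became 133, 524 and 135 under these settings, 198 without the signal filter, 99 with arrays centred on the median of all probe sets and 200 when centred on the tested genes (a setting chosen after seeing the data, as was leaving out WT mice). The 213 lower genes became 99, 357 and 130. The 16 interaction genes became 10 after quantile normalization, 7 with median centring, 6 over all probe sets, 10 with probe sets averaged and 1 without the intensity trend. Leaving out 1 mouse gave 133 to 556 genes in KO, 65 to 337 higher, 68 to 219 lower, and 4 to 31 in the interaction. Of the 161 named KO calls, none reversed under the 26 alternatives, 59 passed under all that could be run for them, and 62 passed without each KO mouse. A call whose KO arrays do not overlap cannot reverse when mice are left out, so the lack of reversal says little about direction. No paired analysis was possible because mice carry single numbers that are not shared between groups. The number of arrays limits the precision (median SE 0.19), and genes near background (Ubd, Saa3, Cd84, Slc4a10, Speer4f1 and Ffar2 on ND, Pon1 and Shroom3 on HFD) have uncertain folds.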
